A study of Mus musculus with 6 samples.

Results

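The METTL3 experiment in 3T3-L1 cells, a mouse fibroblast line that serves as a model of pre-adipocytes, compared 2 METTL3 knockdown libraries with 2 METTL3 control libraries. The labels name transient transfection, the file headers mark the knockdowns with the prefix "si", and what the control cells received is not given in the labels. All 4 libraries came from pre-adipocytes of 1 line with no labelled drug or genotype, and were read in single-read mode with reads of 101 bp. FTO is an RNA demethylase, and an FTO knockdown library and an FTO control library, read in paired-end mode, served only for values set side by side. Members were the genes with a mean of at least 5 CPM (read counts scaled to a common library size) over the 4 METTL3 libraries, which held for 10047 of 37315 gene entries. Knockdown 1 was paired with control 1 and knockdown 2 with control 2. The labels do not say what the number marks, nor that libraries came from separate cultures, so the p-values below speak only of how these 4 libraries vary, and that variation may be technical.

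METTL3 is the catalytic subunit of the complex that places N6-methyladenosine (m6A) on messenger RNA as it is made. The mark is found mostly near stop codons and in 3′ untranslated regions, often in the sequence context GGACT, and it is known to change the splicing, translation and lifetime of transcripts. In 3T3-L1 cells m6A has mostly been studied for its part in adipogenesis. The account below turns to genes outside the lists usually read in this setting (adipocyte, m6A, stress response, matrix, cell cycle, interferon and sterol genes among them).

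The libraries held 41841866 and 44580722 counted reads in the knockdowns, against 43254253 and 41773967 in the controls. Where a gene has 0 reads in a library, its level may still be as high as 3 reads (0.0673 to 0.0718 CPM), a limit that covers counting error only. Fibroblast markers had summed levels of 25857 to 29299 CPM in the knockdowns, against 27492 to 29925 CPM in the controls, and 4 of the 10 were called in the paired fit described below, 1 of them higher and 3 lower, where 31.5% of all members were called. Pre-adipocyte markers summed to 3898 and 4182 CPM in the knockdowns, against 4086 and 4755 CPM in the controls, with 1 of 7 called in each direction. Of the 6 mature adipocyte markers, 5 lay under 1 CPM in every library, and Fabp4 was called lower. Endothelial markers summed to at most 5.79 CPM in the knockdowns, against at most 3.51 CPM in the controls, and of the 5, Tek (log2 fold change 1.46) and Vwf (0.57) were called higher, although only Vwf reached 1 CPM in any library. Of the 5 epithelial markers none was called, Epcam and Krt18 had no reads, Cdh1 and Krt8 lay under 1 CPM in every library, and Krt5 reached at most 1.07 CPM. Smooth muscle markers summed to 636 and 1251 CPM in the knockdowns, against 654 and 1719 CPM in the controls, with 1 of 5 called in each direction. The part of other cell types in the results was not tested.

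Mettl3 itself had 7.68 and 6.55 CPM in the knockdowns, against 25.1 and 28.9 CPM in the controls. The groups did not overlap. The log2 fold change was -1.92 (SE 0.10), with -1.70 in pair 1 and -2.13 in pair 2. In the paired fit (edgeR's quasi-likelihood test with the pair number as a block, two-sided, adjusted over all genes tested) the adjusted p was 1.59e-29, and without the block it was 0.161. Mettl3 (chromosome 14, 52294841 to 52305128, GRCm38, minus strand) shares up to 680 exon bases with Tox4 on the other strand. Tox4 had a log2 fold change of -0.06 (adjusted p = 0.588 in the paired edgeR fit).

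Across the transcriptome the changes of both pairs resembled each other in direction, and pair 2 changed more. Of 13697 genes tested, 3706 (27.1%) were called in the paired edgeR fit at an adjusted p under 0.05, 2016 (14.7%) higher and 1690 (12.3%) lower in the knockdowns. Of the 10047 members, 3169 (31.5%) were called, 1640 (16.3%) higher and 1529 (15.2%) lower. Without the block, 2 genes (0.0146%) were called, Gapdh and its processed copy Gm13394, while 1569 genes (11.5%) had an unadjusted p under 0.05. The paired fit has 1 residual degree of freedom and takes most of its spread from other genes, so its p-values rest on the pairing and on that shared spread. An exact permutation test over 2 libraries against 2 cannot give a two-sided p below 0.333.

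Of the members, 7793 (77.6%) changed with the same sign in both pairs and in 4403 (43.8%) the knockdown and control libraries did not overlap. Across the 10047 members the change in pair 1 and the change in pair 2, which share no library, had a Pearson r of 0.815. This is a description across genes that share library composition and depth, and the difference of number 2 minus number 1 was likewise shared by knockdowns and controls (r = 0.797). The SD of the log2 change over members was 0.23 in pair 1 and 0.31 in pair 2, while number 2 minus number 1 had an SD of 0.28 in the knockdowns and 0.29 in the controls. The median log2 fold change of members was -0.01. A log2 change of at least 0.5 (1.41-fold) was reached by 375 members in pair 1 and by 871 in pair 2. Of these, 297 passed it in both pairs with the same sign, and 0 passed it with opposite signs.

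**Figure D1:**
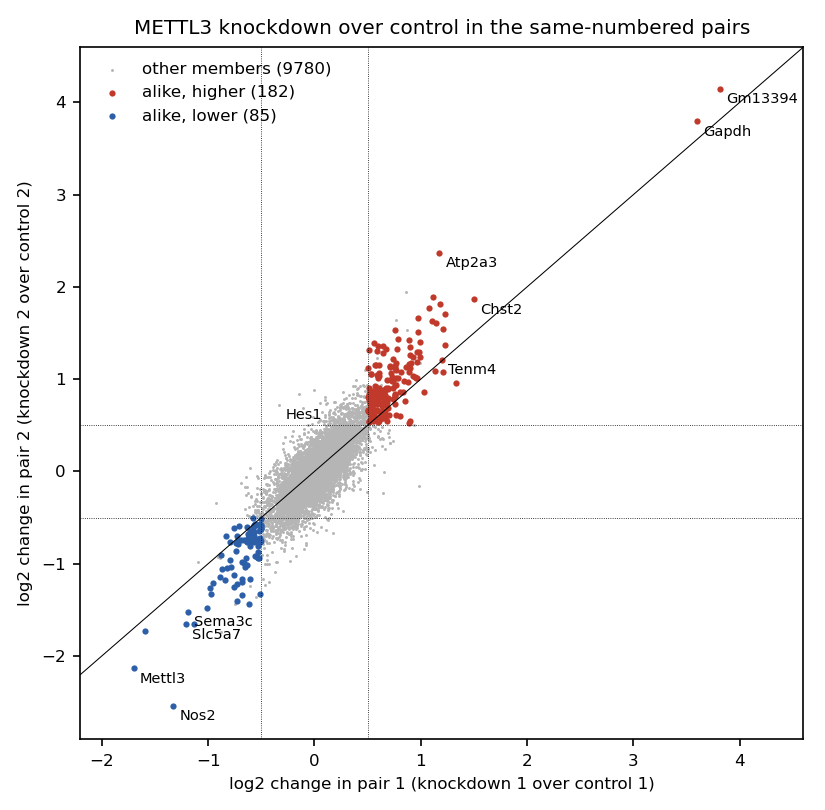
Log2 change of each of the 10047 members in pair 1 (x axis) and pair 2 (y axis), knockdown over control; red and blue points are genes alike in both pairs, dotted lines mark 0.5 and the solid line marks equal changes. Red and blue points lie mostly on the side of the solid line where pair 2 changed more, as 238 of the 267 did.

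A gene was counted as alike in both pairs when it was called, changed by at least 0.5 in log2 in the same direction in each pair, and had groups that did not overlap. This held for 267 members (2.66%), 182 (1.81%) higher and 85 (0.846%) lower in the knockdowns. The change was larger in pair 2 for 238 of them, 160 higher and 78 lower. A change of at least 1 in both pairs was seen for 15 higher and 7 lower members. Just inside the limit on the pair change were Tmem8 at 0.50003 and Zhx3 at 0.50012, and just outside it were Il18rap at 0.49998 and Clba1 at 0.498. Just inside the limit on level were Prelid2 at 5.002 CPM and Ces1a at 5.004 CPM, and just outside it Slc29a2 at 4.99 and Trim62 at 4.98 CPM. On a usual list stood 57 of the 267, against 1150 of all 10047 members, so usual genes were more frequent among the genes alike. The other 210 (138 higher, 72 lower) are the subject here. Of these 210, 207 are protein coding. The median log2 fold change was 0.76 for the 135 higher and -0.72 for the 71 lower genes from which named genes were drawn. These genes include 11 of the 15 higher and 4 of the 7 lower members that changed by at least 1 in both pairs. Gapdh and Gm13394, called without the block, are not among the named genes.

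Among the genes from which named genes were drawn, the largest rises in both pairs included a sulphotransferase, a mitochondrial chaperone, a calcium pump and several transcription factors. Chst2, a Golgi enzyme that sulphates N-acetylglucosamine on glycans, had 96.5 and 69.2 CPM in the knockdowns, against 34.1 and 18.9 CPM in the controls. Both knockdowns lay well above both controls, and both libraries numbered 2 lay below those numbered 1. The log2 fold change of Chst2 came to 1.67 (SE 0.08; adjusted p = 1.88e-30 in the paired edgeR fit), with a change of 1.50 in pair 1 and 1.87 in pair 2. The gene lies on chromosome 9, 95399292 to 95406722 (GRCm38, minus strand).

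Hspa9, the mitochondrial member of the Hsp70 chaperones also called mortalin, had the highest level per length among the 36 genes named for their change in both pairs (18 higher, 18 lower), at 164 RPKM in the knockdowns and 64.3 RPKM in the controls. It had 695 and 715 CPM in the knockdowns, against 301 and 245 CPM in the controls. The groups lay far apart and the knockdowns almost coincided. Hspa9 changed by 1.38 in log2 (SE 0.07; adjusted p = 1.04e-25 in the paired edgeR fit). Fam129a, a stress-responsive gene also called Niban, had 72.7 and 85.7 CPM in the knockdowns, against 31.0 and 33.1 CPM in the controls, and changed by 1.23 and 1.37 in the 2 pairs. Atf1, a bZIP transcription factor of the CREB family, had 70.6 and 78.7 CPM in the knockdowns, against 35.6 and 32.2 CPM in the controls. Its relative Creb1 had 25.4 and 27.2 CPM in the knockdowns, against 32.5 and 34.8 CPM in the controls. Atf1 rose by 1.14 in log2 (SE 0.07) and Creb1 fell by 0.35 (SE 0.08), and neither gene's groups overlapped.

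Enzymes and transporters were also among the genes that rose. Apobec1, the cytidine deaminase that edits apolipoprotein B messenger RNA, had 61.4 and 51.1 CPM in the knockdowns, against 27.0 and 14.5 CPM in the controls. Elovl1, an elongase of very long chain fatty acids, had 87.4 and 86.7 CPM in the knockdowns, against 43.8 and 36.8 CPM in the controls. Atp2a3, a pump that moves calcium into the endoplasmic reticulum, had 9.08 and 12.7 CPM in the knockdowns, against 4.0 and 2.42 CPM in the controls. All 3 kept their groups apart, but Atp2a3 changed by 1.18 in pair 1 and 2.37 in pair 2, so its mean change of 1.76 had a wide error (SE 0.27, adjusted p = 0.00396 in the paired edgeR fit). Its relative Atp2a2, on the ion channel list, had 293 and 276 CPM in the knockdowns, against 194 and 157 CPM in the controls (log2 fold change 0.70, SE 0.06). Kctd15, a BTB domain protein, had 109 and 118 CPM in the knockdowns, against 55.6 and 47.9 CPM in the controls. P2rx3, an ATP-gated channel best known in sensory neurons, had 44.4 and 43.8 CPM in the knockdowns, against 22.3 and 16.6 CPM in the controls. The groups of both genes were clearly separate.

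Tenm4, a teneurin of the cell surface, had 20.9 and 13.0 CPM in the knockdowns, against 9.08 and 5.60 CPM in the controls. The level differed by number more than for most named genes, yet the change was 1.20 in pair 1 and 1.21 in pair 2. Pi16, a peptidase inhibitor that marks some fibroblast progenitors, had 32.9 and 18.4 CPM in the knockdowns, against 15.6 and 5.34 CPM in the controls. Spib, an ETS family transcription factor of lymphoid cells, had 27.2 and 13.8 CPM in the knockdowns, against 12.5 and 3.70 CPM in the controls. For both, knockdown 2 lay only slightly above control 1, so the separation of the groups was narrow. Cd74, the invariant chain of MHC class II, had 33.4 and 31.4 CPM in the knockdowns, against 14.2 and 9.63 CPM in the controls, and its groups were far apart. Macrophage markers summed to 10.1 to 11.5 CPM in the knockdowns, against 7.66 to 7.71 CPM in the controls. In that list 1 of 6 was called, Csf1r, and Adgre1, Ptprc and Itgam lay under 1 CPM in every library. The part of such cells in the change of Cd74 and Spib was not tested.

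The last of the named genes that rose are spread over the cytoskeleton, the mitochondrion and little studied proteins. Mrps17, a protein of the small mitochondrial ribosomal subunit, had 50.2 and 54.8 CPM in the knockdowns, against 25.5 and 19.1 CPM in the controls. Of the 59 members that encode mitochondrial ribosomal proteins, 3 rose and 4 fell (11.9% called, against 31.5% of all members, with a median log2 fold change of 0.01). Mrps17 at 1.24 and Mrpl4 at 0.82 were the 2 alike in both pairs, and 52 were not called. Bnc1 (basonuclin, a zinc finger factor), Krt80 (a type II keratin), Gdap1l1 and Cgref1 lay between 6.19 and 9.53 CPM in the knockdowns, against between 2.54 and 4.27 CPM in the controls. Their log2 fold changes were 1.15, 1.00, 1.38 and 1.09.

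**Figure D2:**
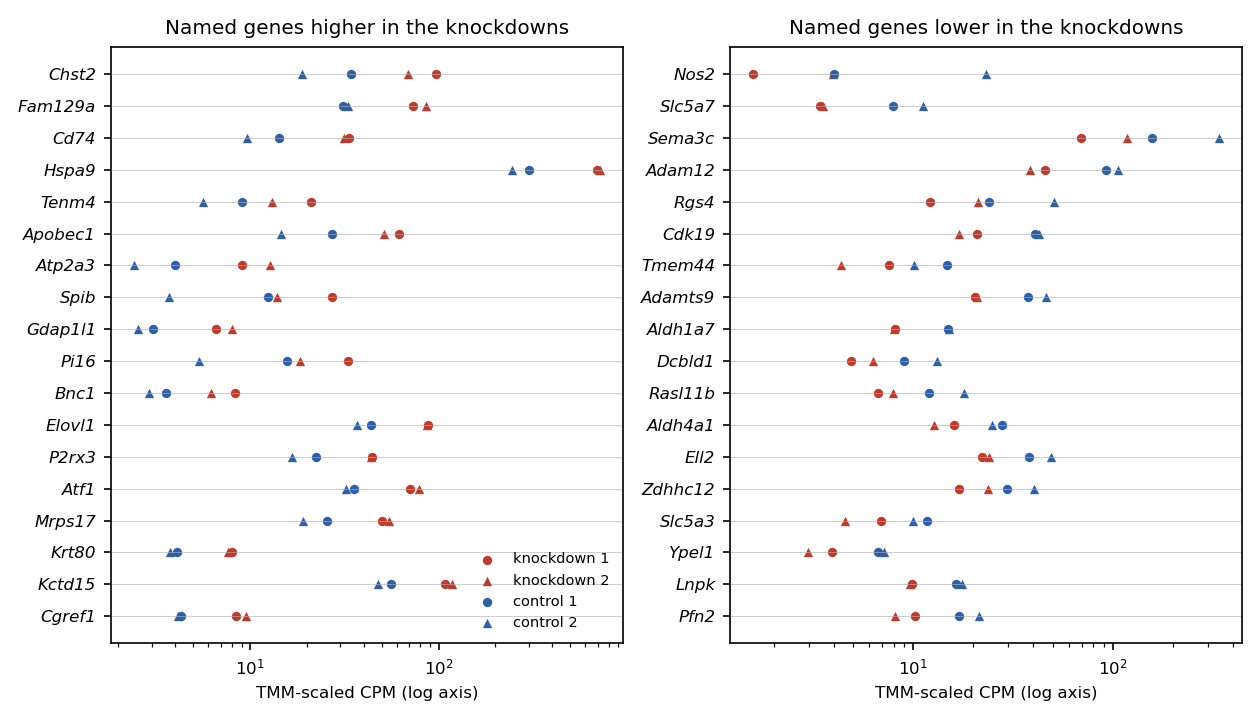
TMM-scaled CPM (log axis) of the 18 named genes that were higher and the 18 that were lower in the knockdowns; red points are knockdown libraries, blue points control libraries, circles number 1 and triangles number 2. In every row the 2 red points lie on the same side of the 2 blue points, as the rule for these genes requires, and the distance is smallest for Nos2, Spib and Rgs4.

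Among the genes from which named genes were drawn, secreted and cell-surface proteins were some of those with the largest falls in both pairs. Sema3c, a secreted semaphorin that guides migrating cells and axons, had 69.0 and 118 CPM in the knockdowns, against 157 and 340 CPM in the controls. Both libraries numbered 2 were higher than those numbered 1, and the groups did not overlap. Sema3c changed by -1.36 in log2 (SE 0.07; adjusted p = 1.11e-26 in the paired edgeR fit), with -1.19 in pair 1 and -1.52 in pair 2. Sema3c lies on chromosome 5, 17574281 to 17730268 (GRCm38, plus strand). Adam12, a membrane metalloprotease, had 46.0 and 38.2 CPM in the knockdowns, against 92.9 and 107 CPM in the controls. Adamts9, a secreted protease that cuts versican, had 20.3 and 20.9 CPM in the knockdowns, against 37.7 and 46.3 CPM in the controls. The groups of these 2 proteases were well apart.

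Signalling genes followed. Rgs4, which speeds GTP hydrolysis by G proteins, had 12.1 and 21.1 CPM in the knockdowns, against 23.9 and 50.6 CPM in the controls. Nos2, the inducible nitric oxide synthase, had 1.57 and 3.96 CPM in the knockdowns, against 4.02 and 23.2 CPM in the controls. Knockdown 2 lay just below control 1, so the non-overlap of Nos2 is narrow, and control 2 stood far above the rest. Its log2 fold change was -2.16 (SE 0.22), with -1.33 in pair 1 and -2.54 in pair 2. Cdk19, a kinase of the Mediator complex, had 20.7 and 16.9 CPM in the knockdowns, against 40.8 and 42.5 CPM in the controls. Ell2, an elongation factor of RNA polymerase II, had 22.0 and 23.9 CPM in the knockdowns, against 37.9 and 48.9 CPM in the controls. For both regulators the groups were clearly separate.

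Transporters and metabolic enzymes made up another share. Slc5a7, the high-affinity choline transporter, had 3.39 and 3.53 CPM in the knockdowns, against 7.90 and 11.2 CPM in the controls. Aldh1a7 had 8.09 and 8.03 CPM in the knockdowns, against 14.9 and 15.1 CPM in the controls, and Aldh4a1, a mitochondrial enzyme of proline breakdown, had 16.0 and 12.7 CPM in the knockdowns, against 27.7 and 24.7 CPM in the controls. The pair changes of Aldh1a7 were nearly equal, at -0.88 and -0.90. The other named genes that fell were Pfn2 (profilin 2, which binds actin), Lnpk (lunapark, of endoplasmic reticulum junctions), Zdhhc12 (a palmitoyltransferase), Slc5a3 (a myo-inositol transporter), Rasl11b, Dcbld1, Tmem44 and Ypel1. Their log2 fold changes ran from -1.08 for Tmem44 to -0.78 for Zdhhc12.

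Of these 36 genes, 5 share exon bases with another gene at 1 CPM or more, and whether reads were counted by strand is not given in the sources used here. Slc5a3 shares up to 159 exon bases with Mrps6 on the same strand, and on opposite strands Ypel1 overlaps Ppil2, Zdhhc12 overlaps Pkn3, Elovl1 overlaps Cdc20 and P2rx3 overlaps Ssrp1. The 3 genes that fell had partners with log2 fold changes of 0.15 (Mrps6), 0.04 (Ppil2) and 0.22 (Pkn3), none called. Cdc20 and Ssrp1 were called higher, by 0.21 and 0.20, against 1.12 for Elovl1 and 1.19 for P2rx3. Values of these genes are uncertain to the extent of the shared bases.

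No member passed 0.5 in opposite directions. The largest opposite changes were those of Hes1, a transcriptional repressor of the Notch pathway, which had 58.9 and 96.9 CPM in the knockdowns, against 74.3 and 58.7 CPM in the controls. The groups overlapped, the pair changes were -0.33 and 0.72, and the gene was not called (adjusted p = 0.836 in the paired edgeR fit). The next, 3110039I08Rik, Gm11261 and March3, had pair changes between -0.43 and 0.37 and were not called.

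Pathway lists outside the usual ones were then read as counts against the background of all members, 16.3% higher and 15.2% lower. Of the 56 lists, none had a member called without the block. The circadian clock is a loop in which CLOCK and ARNTL activate genes through the E-box CACGTG, among them the repressors that close the loop. Of its 18 members, 9 rose and 2 fell (median log2 fold change 0.23), and 4 were alike in both pairs. Those that rose most were the repressor genes Ciart, Bhlhe40, Nr1d1 and Nr1d2 and the output gene Dbp. Other repressor genes rose less, fell or were not called. Ciart, a repressor of CLOCK-ARNTL, had 9.52 and 10.1 CPM in the knockdowns, against 4.87 and 4.98 CPM in the controls. The groups were well apart and replicates nearly coincided, and the change was 0.96 in pair 1 and 1.01 in pair 2 (log2 fold change 0.99, SE 0.13, adjusted p = 7.31e-10 in the paired edgeR fit).

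Bhlhe40, an E-box binding repressor also called Dec1, had 122 and 80.4 CPM in the knockdowns, against 72.4 and 42.0 CPM in the controls. Nr1d1, the nuclear receptor REV-ERB alpha that represses Arntl, had 45.7 and 59.2 CPM in the knockdowns, against 30.0 and 31.5 CPM in the controls. Both rose with no overlap of the groups, by 0.84 (SE 0.07) and 0.76 (SE 0.08) in log2. Nr1d2, its close relative, rose by 0.71, the output factor Dbp by 0.66, Rora by 0.54, Per3 by 0.34, Nfil3 by 0.31 and Per2 by 0.26. Per1 fell by 0.19 and the kinase gene Csnk1e fell by 0.25. The activators Clock and Arntl had log2 fold changes of 0.08 and -0.19 and were not called. Cry1, Cry2, Bhlhe41 and Tef had 0.17, -0.02, 0.21 and 0.15 and were not called either. The promoter of Ciart (RefSeq, GRCm38.p6, chr3:95882179-95882478, minus strand, 250 bases before to 50 after the start) is shown because it holds the E-box 3 times, in capitals, at 116, 58 and 44 bases before the start.
Ciart: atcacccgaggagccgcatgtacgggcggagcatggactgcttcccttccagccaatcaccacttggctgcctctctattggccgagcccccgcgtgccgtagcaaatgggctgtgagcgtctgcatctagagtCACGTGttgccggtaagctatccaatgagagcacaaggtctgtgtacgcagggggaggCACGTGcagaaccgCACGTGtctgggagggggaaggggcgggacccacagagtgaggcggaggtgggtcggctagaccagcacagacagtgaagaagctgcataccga
CACGTG, which reads the same on both strands, was present in promoters of 5 of the 15 clock genes matched in RefSeq (33.3%), namely Ciart, Per1, Cry1, Tef and Bhlhe41. Of these 5, Ciart rose and Per1 fell. It was present for 12.2% of the members matched, 12.8% of the matched genes alike and higher, 12.3% of those alike and lower, and 8.09% of all genes with a promoter in the table. A match describes letters only.

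Cytosolic aminoacyl-tRNA synthetases load amino acids onto transfer RNAs. Of 22 members, 13 rose and 0 fell, with 59.1% called and a median of 0.18. Of these 13, 9 stand on the usual list of ATF4 targets (ATF4 is the transcription factor of the amino acid response), and the other 4 were Vars, Eprs, Iars and Lars. Vars had 209 and 263 CPM in the knockdowns, against 174 and 184 CPM in the controls, and rose by 0.39 (SE 0.06). Aars, on the ATF4 list, had 1179 and 1153 CPM in the knockdowns, against 670 and 543 CPM in the controls, and its rise of 0.95 (SE 0.07) was the largest of the list. Dars, Qars, Rars, Kars, Hars, Farsa and Farsb, none on that list, had log2 fold changes between -0.17 and -0.01 and were not called. The 22 members also include Aimp1 and Aimp2, which are not synthetases. Their log2 fold changes were -0.12 and -0.13, and neither was called. The promoter of Aars (RefSeq, GRCm38.p6, chr8:111033592-111033891, plus strand) is shown for the C/EBP-ATF response element, searched as TGATGNAA on both strands. Its 2 matches, in capitals and both on the reverse strand, begin 112 bases before and 9 bases after the start.
Aars: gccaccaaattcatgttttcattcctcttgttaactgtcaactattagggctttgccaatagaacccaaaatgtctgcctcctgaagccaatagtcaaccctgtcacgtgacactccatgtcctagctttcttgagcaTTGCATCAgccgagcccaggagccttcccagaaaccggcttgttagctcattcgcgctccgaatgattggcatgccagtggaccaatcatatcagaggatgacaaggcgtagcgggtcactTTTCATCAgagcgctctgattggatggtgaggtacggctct
The element was present for 5 of 14 matched synthetase genes (35.7%; Aars, Gars, Iars, Tars and Yars), all of which rose. Among genes alike in both pairs it was present for 13 of 133 that were higher (9.77%) and 1 of 65 that were lower (1.54%), against 2.46% of all members matched and 4.51% of all genes in the table. Of the 13, 5 are on a usual list, and the 8 outside are Apobec1, Pi16, Avil, Ager, Arl14ep, Pck2, Synj2 and Ctsl. The cAMP response element TGACGTCA was at 3.01% and 3.08% in genes alike and higher and alike and lower, and the AP-1 site TGACTCA at 6.02% and 3.08%, against 3.69% and 4.13% of members. These shares are descriptions, with no test.

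Serine and folate metabolism was read next. Of 31 members of the list for folate-bound carbon units, serine and polyamines, 15 rose and 2 fell (median 0.19), and 4 of those called stand on a usual list. Aldh1l2, a mitochondrial folate enzyme, had 203 and 206 CPM in the knockdowns, against 138 and 116 CPM in the controls. Shmt2, which splits serine in the mitochondrion, had 329 and 465 CPM in the knockdowns, against 234 and 290 CPM in the controls. Both had separate groups and rose by 0.69 and 0.59 (SE 0.06 each). Mthfd1l rose by 0.51, Mat2a, which makes the methyl donor S-adenosylmethionine, by 0.40, and Shmt1 by 0.37. Sat1 rose by 0.55 and Odc1 by 0.27 on the polyamine side, where Smox fell by 0.24 and Oaz2 by 0.21. Of 26 nucleotide synthesis genes, 9 rose and 1 fell (median 0.11). They were led by Uck2, a uridine-cytidine kinase, at 0.49, while Impdh1 fell by 0.30.

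Ribosome biogenesis covers the factors that process ribosomal RNA and assemble the subunits. Of 40 members, 14 rose and 0 fell, and 36 of 40 had a positive log2 fold change (median 0.13). Ltv1, an assembly factor of the small subunit, had 21.1 and 24.1 CPM in the knockdowns, against 12.2 and 11.9 CPM in the controls. It was the only gene of this list alike in both pairs (log2 fold change 0.90, SE 0.10). Gar1, of the pseudouridylating H/ACA particles, had 48.8 and 66.3 CPM in the knockdowns, against 39.0 and 39.7 CPM in the controls. Gnl3, the nucleolar protein nucleostemin, rose by 0.37, Nop56 by 0.36, Dkc1 by 0.26 and Npm1 by 0.21. RNA polymerase I subunits Polr1a, Polr1b, Polr1c and Polr1e lay between -0.05 and 0.13 and were not called.

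In the hypoxia list 9 of 18 rose and 2 fell (median 0.13), and 3 of those called stand on a usual list. Of the sensors and factors, Hif1a rose by 0.45 and its hydroxylase gene Egln1 by 0.49, while Epas1, which encodes HIF-2 alpha, fell by 0.64. Epas1 had 18.5 and 16.4 CPM in the knockdowns, against 26.6 and 27.8 CPM in the controls. The groups were apart and pair changes were -0.52 and -0.75. Of the targets, Plod2, a collagen lysyl hydroxylase, rose by 0.95, Adm by 0.49, Ddit4 by 0.45 and Bnip3 by 0.36, whereas Bnip3l fell by 0.27.

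Other lists held mainly genes that fell. Of the 38 genes of the TCA cycle and fatty acid oxidation, 15 fell and 1 rose (median -0.14). Acadm, the medium-chain acyl-CoA dehydrogenase, had 77.1 and 73.5 CPM in the knockdowns, against 101 and 92.1 CPM in the controls. Acads, for short chains, had 93.5 and 103 CPM in the knockdowns, against 117 and 131 CPM in the controls. The groups of both were apart, with log2 fold changes of -0.36 and -0.33 (SE 0.07 and 0.06), and Me2 rose by 0.18. Of 34 proteasome subunits, 13 fell and 0 rose (median -0.13). Psme4, the nuclear activator PA200, fell by 0.42, Psmd8 by 0.28 and Psma6 by 0.26. Of the 14 subunits of the CCT chaperonin and prefoldin, 4 fell and 0 rose (28.6% called, median -0.14).

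**Figure D3:**
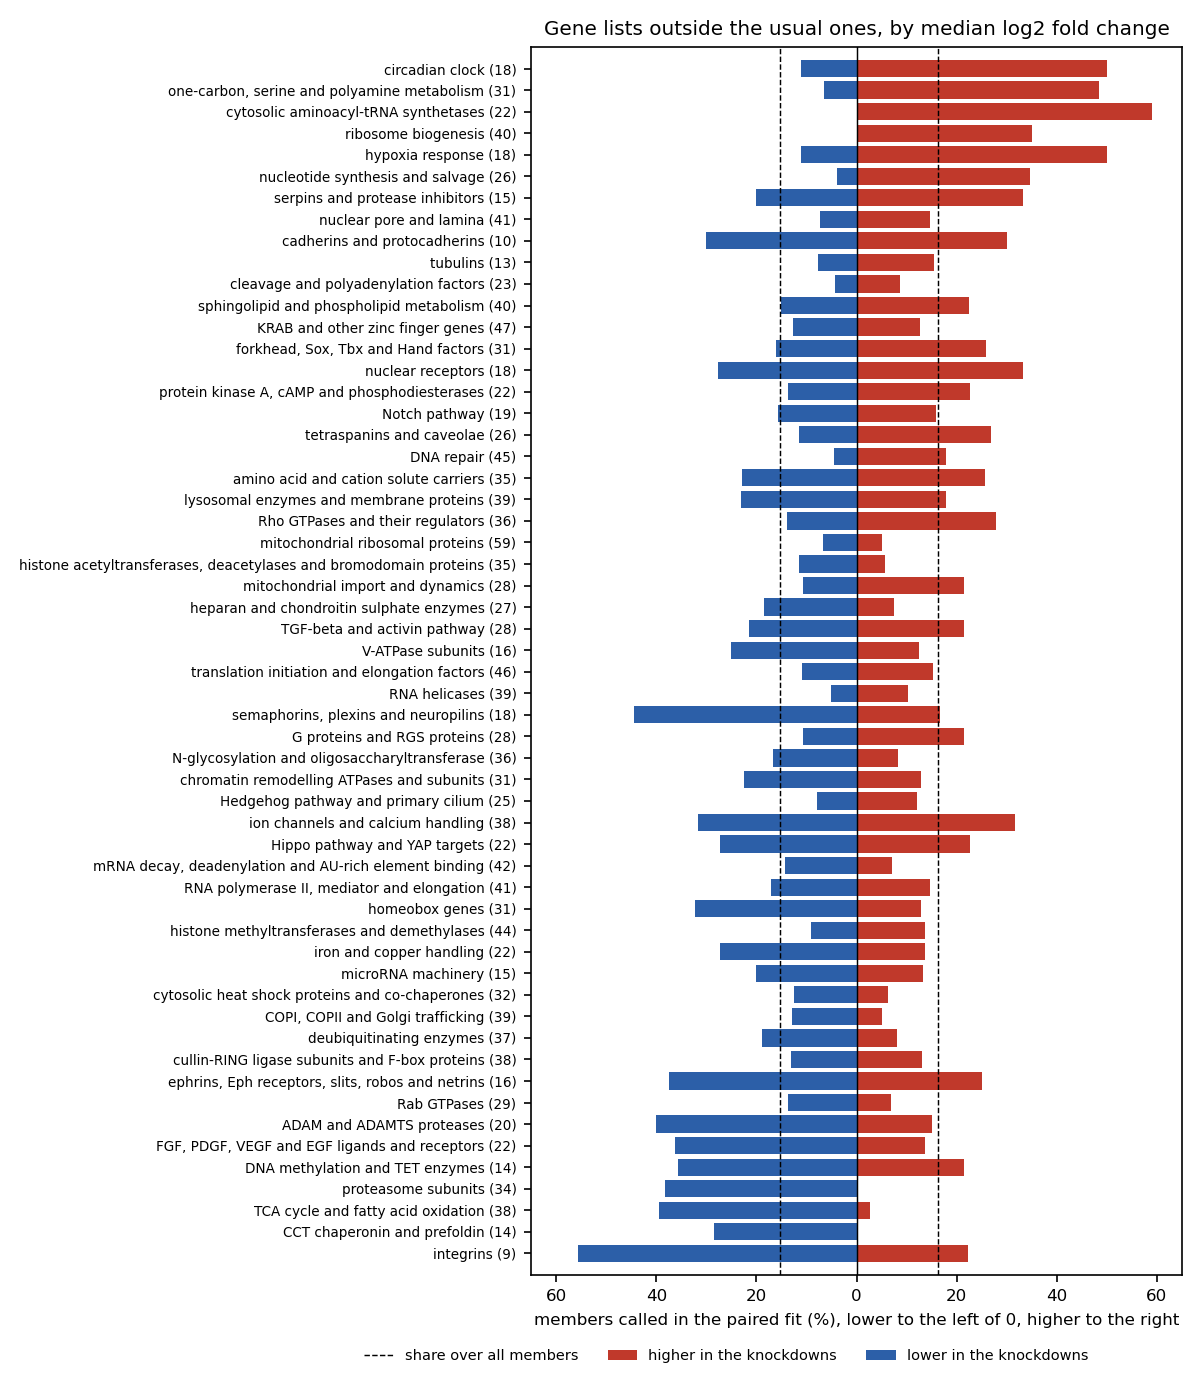
Share of each list's members called higher (red, right) and lower (blue, left) in the knockdowns in the paired fit, for lists with at least 9 members (number in brackets), ordered by median log2 fold change; dashed lines mark 16.3% and 15.2%, the shares over all members. Synthetases and ribosome biogenesis genes have no blue bar, and proteasome and CCT subunits have no red bar.

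Cell-surface receptors and guidance cues were called often and in both directions. Of 9 integrins, 5 fell and 2 rose (median -0.23). Itga11, a collagen receptor chain, had 7.70 and 6.22 CPM in the knockdowns, against 12 and 9.44 CPM in the controls. Itga6, a laminin receptor chain, had 37.4 and 42.6 CPM in the knockdowns, against 26.1 and 24.8 CPM in the controls. Itga11 fell by 0.62 (SE 0.12) and Itga6 rose by 0.65 (SE 0.08), and neither gene's groups overlapped. Itga1 fell by 0.50, Itgb3 by 0.34, Itga3 by 0.25 and Itga5 by 0.23, and Itgb5 rose by 0.40. Of 18 semaphorin, plexin and neuropilin genes, 8 fell and 3 rose (median -0.03). With Sema3c fell the ligand genes Sema6c (-0.63), Sema3a (-0.42) and Sema4g (-0.32) and the receptor genes Plxnb1 (-0.52), Nrp1 (-0.41), Plxnd1 (-0.38) and Nrp2 (-0.21). Sema3b rose by 0.54, Sema5a by 0.56 and Plxna3 by 0.23. Of 20 ADAM and ADAMTS genes, 8 fell and 3 rose (median -0.09). Adam8 rose, with 50.1 and 61.4 CPM in the knockdowns, against 33.2 and 29.7 CPM in the controls (log2 fold change 0.82, SE 0.08).

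Growth factor and receptor genes divided by member. Of 22 members, 8 fell and 3 rose (median -0.09). Hgf, hepatocyte growth factor, had 15.4 and 15.4 CPM in the knockdowns, against 25.4 and 25.9 CPM in the controls, and fell by 0.74 (SE 0.09). Fgf10, a mesenchymal ligand, had 10.9 and 8.74 CPM in the knockdowns, against 15.7 and 15.4 CPM in the controls, and fell by 0.67 (SE 0.11). Pdgfc, a ligand of PDGF receptors, had 24.4 and 26.4 CPM in the knockdowns, against 15.6 and 15.7 CPM in the controls, and rose by 0.69 (SE 0.09). Replicates of Hgf and Pdgfc almost coincided, those of Fgf10 were further apart in the knockdowns, and no groups overlapped. Of the receptors, Fgfr3 fell by 0.62 and Pdgfra by 0.47, and Fgfr1 rose by 0.36. In the TGF-beta list 6 of 28 rose and 6 fell (median -0.01), with Tgfbr1, the type I receptor, at 18.4 and 16.4 CPM in the knockdowns, against 10.1 and 9.63 CPM in the controls (log2 fold change 0.81, SE 0.10). Gli1, the target and activator of Hedgehog signalling, rose by 0.98 (SE 0.15) and Gli2 by 0.37, while 20 of the 25 genes of that list were not called.

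Among regulators of chromatin and pattern, 5 of 14 DNA methylation and TET genes fell and 3 rose (median -0.09). The de novo methyltransferase gene Dnmt3a had 30.0 and 29.8 CPM in the knockdowns, against 43.1 and 46.7 CPM in the controls. Dnmt3b had 3.56 and 4.32 CPM in the knockdowns, against 5.87 and 6.52 CPM in the controls. Both had separate groups and fell, by 0.59 (SE 0.08) and 0.65 (SE 0.15). The maintenance genes Uhrf1 and Dnmt1 rose by 0.42 and 0.16, the demethylation genes Tdg and Tet3 fell by 0.37 and 0.29, and Tet2 had 0.02. Of 31 homeobox genes, 10 fell and 4 rose (median -0.05), led by Hoxd8 at -0.53 and Hoxa4 at -0.45. Tgif1, a TGF-beta repressor with a homeobox, rose by 0.63. The list of 38 ion channel and calcium genes had 12 called in each direction, with Kcnn4 at 0.67 and Atp1b1 at -0.72.

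DESeq2 with the same block called fewer genes, 8.11% of members higher and 5.9% lower, and list counts are read against those shares. It called higher 6 clock, 8 synthetase, 11 folate and polyamine and 8 ribosome biogenesis genes, with 0 lower in each. In the hypoxia list it called 7 higher and 2 lower, and in nucleotide synthesis 4 higher and 1 lower. Of the lists that mainly fell, 6 of 38 TCA cycle and 5 of 34 proteasome genes were called lower and 0 higher. In the CCT and prefoldin list 1 of 14 was called lower and 0 higher, a share lower that was near the 5.9% of all members. It called 2 homeobox genes lower and 3 higher, 2 integrins in each direction, 2 DNA methylation genes lower and 1 higher, and 2 mitochondrial ribosomal genes higher and 1 lower. Semaphorin and plexin genes had 6 lower and 1 higher, ADAM genes 5 and 3, growth factor genes 6 and 3, TGF-beta genes 4 and 5, Hedgehog genes 0 and 2, and ion channel genes 11 and 6.

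Several of the list genes given above share exon bases with a gene of at least 1 CPM on the other strand, so their values are uncertain to that extent. Nr1d1 shares up to 263 bases with Thra, which at 235 CPM was more abundant and fell by 0.29. Aldh1l2 shares up to 1056 bases with D10Wsu102e (log2 fold change 0.16), Dbp 539 with Sphk2 (-0.14), Atp1b1 383 with Nme7 (0.06), Tdg 367 with Glt8d2 (0.12), Hars 195 with Hars2 (-0.11), Hif1a 191 with Gm15283 (0.29) and Shmt1 184 with Smcr8 (0.10), and none of these partners was called. Dkc1 shares 45 bases with Mpp1 and Yars 30 with C77080, partners that rose by 0.36 and 0.45, and Adam8, Gnl3 and Nop56 share between 5 and 46. Tdg also has near-identical copies summing to 29.1 CPM, above its own 16.9 CPM.

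Structural features that played no part in the choice of genes are given for genes alike and higher and genes alike and lower, as descriptions with no test. The longest transcript had an annotated coding region for 155 of the 174 protein-coding genes alike and higher, 68 of the 84 alike and lower and 8172 of all 9871 protein-coding members. Lengths of coding regions and 3′ UTRs are over those genes. The 3′ UTR was longer than 0 bases in all of the 155 and 68 genes and in 8158 of the 8172 members. The median 3′ UTR was 1288 bases in genes alike and higher and 2503 bases in genes alike and lower, against 1440 bases in all such members. The middle of the distributions (25th to 75th percentile) ran from 762 to 2266, from 1146 to 4099, and from 660 to 2677 bases in these sets. The median coding length was 1458, 1377 and 1407 bases in the same order. Over all called members with a coding region the median 3′ UTR differed less, at 1275 bases in 1340 higher and 1674 bases in 1282 lower genes. Level, unlike these features, entered the choice of genes through the limit of 5 CPM and through the test. Genes alike and lower had a median of 15.6 CPM, against 29.0 CPM for those alike and higher and 43.1 CPM for all protein-coding members. All protein-coding members called higher or lower, without the rule on the pair change, had medians of 50.1 and 47.2 CPM. GC content of the exons had medians of 51.6% (alike and higher), 49.3% (alike and lower) and 49.9% (all protein-coding members). The motif GGACT occurred 1.13, 0.98 and 1.04 times per kilobase of exon at the median. Over all members with annotation, the Spearman correlation of the log2 fold change was -0.09 with 3′ UTR length (8174 genes), 0.11 with GC content and 0.06 with GGACT density (10007 genes each). The correlations were weaker in pair 1 than in pair 2, at -0.04 and -0.11 for 3′ UTR length. They were 0.06 and 0.13 for GC content, and 0.042 and 0.061 for GGACT density. Genes alike in both pairs were found on every autosome and on X.

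**Figure D4:**
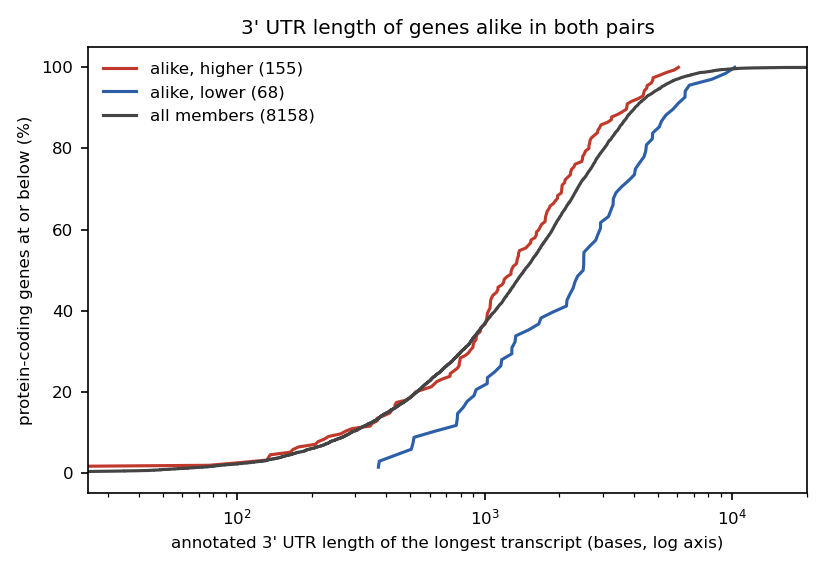
Cumulative share of protein-coding genes (y axis, %) by annotated 3′ UTR length (x axis, bases, log scale) for genes alike and higher (red), alike and lower (blue) and all members (grey); genes without an annotated 3′ UTR are left out. The blue line lies to the right of the others. Its median is 2503 bases over the 68 genes alike and lower. The median was 1440 bases over the 8172 members with a coding region, of which 8158 had a 3′ UTR longer than 0 bases.

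In the FTO libraries, which have their own control and share no library with the METTL3 experiment, the same genes were measured with 1 library per group, so there is no test. Of genes alike and higher with METTL3 knockdown, 152 had a mean of at least 5 CPM there, and their median log2 change, FTO knockdown over FTO control, was 0.17. Of these, 31 (20.4%) were at 0.5 or above and 13 (8.55%) at -0.5 or below. Of genes alike and lower, 70 were measured, with a median of -0.14, and 2 (2.86%) lay at 0.5 or above and 19 (27.1%) at -0.5 or below. All 9510 members measured had a median of -0.02, with 254 (2.67%) and 655 (6.89%) past these limits. Of the 36 named genes at or above that level, the values ranged from 1.64 for Tenm4 and 1.59 for P2rx3 to -1.01 for Bnc1 and -1.05 for Aldh1a7, and Sema3c was at 0.23.

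**Figure D5:**
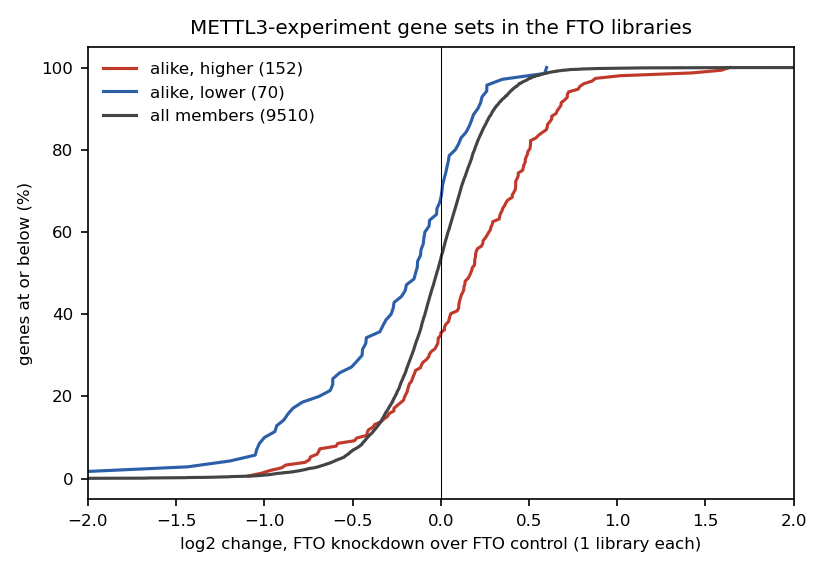
Cumulative share of genes (y axis, %) by log2 change of FTO knockdown over FTO control (x axis; 1 library each, genes of at least 5 CPM, axis drawn from -2 to 2), for genes alike and higher (red) or alike and lower (blue) in the METTL3 experiment and for all members (grey). The red line lies to the right and the blue line to the left of the grey line over most of the range, with medians of 0.17, -0.14 and -0.02.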

How the data were processed

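RNA sequencing of 3T3-L1 cells was compared between 2 METTL3 knockdown and 2 METTL3 control libraries. Each table gives, per the file headers, read counts per Ensembl gene, deposited as raw whole numbers, and RPKM values that the authors scaled by gene length and read total, used here for levels per length. The submitters' processing notes list TopHat2 2.0.9, bedtools and mm10. Strand use and multiply matching reads are not described there. Symbols and positions came from GENCODE M21 on GRCm38 (35449 of 37315 entries matched). Total counts ran from 41773967 to 44580722.

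Counts were fitted with edgeR 4.0.16 (R 4.3.3; TMM, filterByExpr, robust glmQLFit, glmQLFTest) with the library number as a block, Benjamini-Hochberg adjusted over 13697 genes and called under 0.05. Of these genes 10047 had a mean of at least 5 CPM, and each such gene passed filterByExpr. The block was used although the labels do not tie same-numbered libraries; with 2 pairs, the shared difference between numbers (r = 0.797) is a hint from the data, not the design. The blocked fit had 1 residual and a median of 115 prior degrees of freedom and a median coefficient of variation of 0.0560, against 2, 3.41 and 0.131 without it. CPM values are TMM-scaled; pair changes are on log2 CPM with a prior count of 2, and SE is the size of the log2 change over the square root of the F statistic. The fitting scripts were tested on simulated data.

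Named genes were Mettl3 and, of protein-coding genes alike in both pairs on none of 36 usual lists, the 18 higher and 18 lower with the largest smaller pair change (clone-type symbols left out); up to 4 with the largest opposite changes; and the leading called genes of 56 other lists, to which further members were added when their values had been seen. Gene names, members and lists were chosen with earlier results of these data known. Promoters (250 bases before to 50 after the start) came from RefSeq. Copies were searched with blastn 2.17.0 (95% identity over 200 bases). DESeq2 1.42.0, limma-voom 3.58.1, other scalings, filters, a GC and length correction, fits without the block and left-out libraries served as alternatives.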

Additional observations from a re-analysis of the deposited data

How the results depend on the processing

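The pairing decides how many genes are called. Without the replicate block 2 genes were called and 2 were alike in both pairs, and Mettl3 (log2 fold change -1.92) and each of the 36 named genes were not called (adjusted p = 0.161 for Mettl3 and 0.168 to 0.491 for the 36, edgeR). With the block, counts ran from 3118 (only members tested) to 3921 (GC and length correction) in edgeR and limma-voom, but DESeq2 called 1459, of which 1454 were among the 3706. Genes alike in both pairs numbered 265 to 275 under these scalings, filters and tools, 200 at a mean of at least 10 CPM, 859 at a pair change of at least 0.3 and 22 at a pair change of at least 1. The 36 named genes stayed called with the same direction in all 7 blocked alternatives. Of all members, library totals gave 1527 higher and 1787 lower calls, against 1640 and 1529 with TMM.

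An incomplete pair leaves no residual degree of freedom under the block, so libraries were left out without it, the lone library being taken to vary like the others. Counts called then ran from 2 (without control 2) to 70 (without knockdown 1), with 3 without control 1, and genes alike from 2 to 62, again with 3 without control 1. Mettl3 ran from -2.04 (without knockdown 1, adjusted p = 0.00137) and -2.02 (without control 1, adjusted p = 0.0830) to -1.82 (without control 2 or knockdown 2, adjusted p = 0.318 and 0.0288, edgeR). Of the 36 named genes, 16 were called without knockdown 1, 2 without knockdown 2 and 0 without either control. Genes under 5 CPM were tested but not described, since few reads bear on them, apart from cell type markers, overlapping genes and those at the limit.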
